A study of Mus musculus with 50 samples.

Results

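The colon recovers salt and water and defends its surface pH with a small set of membrane proteins that move chloride, bicarbonate and protons. The genes described here are 10 such transporters and channels, matched by gene symbol: Slc26a3, Slc26a6, Slc9a2, Slc9a3, Atp12a, Slc4a4, Slc12a2, Cftr, Best2 and Kcnn4. They were chosen with earlier results of these data known. All 10 were among the 56691 genes of the deposited table, each under 1 identifier, and all 10 were among the 17928 genes that passed the filter on low counts. Their mRNA was measured by poly(A) RNA sequencing of colon from 50 BALB/c mice, 1 library per mouse. The 5 groups of 10 mice were sham mice, mice given TNBS and vehicle, and mice given TNBS and A1007 at 10, 30 or 90 mpk, a dose unit printed as the labels give it. TNBS, trinitrobenzene sulfonic acid, is a hapten that provokes colitis when it reaches the colon wall. By the series title A1007 activates AhR, the aryl hydrocarbon receptor, which binds DNA when a small ligand occupies it. The comparisons ask how TNBS colitis changes these genes and whether the compound changes them in colitic colon. The labels give no age, sex or time of sampling, and place all mice in batch 1. The tissue is colon by the labels, and its distal end by the series text.

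In an absorbing colonocyte, sodium-proton exchangers in the apical membrane take up sodium and release protons, and an apical anion exchanger takes up chloride and releases bicarbonate. Coupled, they absorb sodium chloride, and water follows. In secreting crypt cells, a basolateral cotransporter loads chloride, a potassium channel holds the membrane voltage, and chloride and bicarbonate leave through apical channels. Loss of the main apical exchanger, SLC26A3, causes congenital chloride diarrhoea in people, and diarrhoea is a leading sign of colitis.

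Markers of the colon wall set the background for these values. The list of 10 pan-epithelial genes, such as Epcam and Cdh1, summed to between 7185 and 8727 CPM (counts scaled to library size) in sham and between 5804 and 8855 CPM in vehicle mice, and 1 of the 10 was called lower in vehicle mice. Of 8 surface colonocyte markers, such as Car4 and Aqp8, 4 were called lower in vehicle mice (median log2 fold change -0.37), with sums of 3610 to 6142 CPM in sham and 2860 to 4197 CPM in vehicle mice. All 6 neutrophil, all 6 macrophage and all 6 fibroblast markers were called higher in vehicle than in sham mice. Their sums ran from 34.95 to 4214, 231 to 493.7 and 3701 to 9114 CPM in vehicle mice, against 24.36 to 54.19, 109.3 to 152.2 and 972.7 to 1673 CPM in sham mice, and none of these markers was at 0 in every mouse of a group. The part of these cells in the results below was not tested. In bulk tissue, fewer cells of a type and less RNA per cell cannot be told apart. Libraries held between 14373337 and 20446967 counts. Pancreatic enzyme transcripts summed to 46560 CPM in vehicle mouse 6 and to 1272, 1502 and 598.6 CPM in vehicle mice 2, 5 and 9, where the other vehicle mice reached at most 16.02 CPM and sham mice 12.66 CPM. In the A1007 groups they reached 784.8 CPM at 10 mpk, 3204 CPM at 30 mpk and 506.5 CPM at 90 mpk. The 10 mpk mice 3 and 8 stood apart with summed distal Hox transcripts of 50.59 and 37.47 CPM, where the other mice of that dose reached 209.7 to 469.2 CPM. Posterior Hox genes such as these are expressed in the hindmost gut.

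Promoters are shown for 3 members whose transcripts were lower in colitic colon, because A1007 is named as a ligand of AhR, and because these windows differ in base composition and motifs. RefSeq windows on GRCm38.p6, running from 250 bases before to 50 bases after a start site, were found for 6 of the 10 members. Capitals mark matches to GCGTG (the core of the dioxin response element that AhR binds), CAAAG (part of an HNF4-type site), TTTATNG (a CDX-type site) or TATAAA (the TATA box), each searched on both strands. None of these motifs overlaps another in the windows below.
Slc26a3, chr12:31437969-31438268, plus strand: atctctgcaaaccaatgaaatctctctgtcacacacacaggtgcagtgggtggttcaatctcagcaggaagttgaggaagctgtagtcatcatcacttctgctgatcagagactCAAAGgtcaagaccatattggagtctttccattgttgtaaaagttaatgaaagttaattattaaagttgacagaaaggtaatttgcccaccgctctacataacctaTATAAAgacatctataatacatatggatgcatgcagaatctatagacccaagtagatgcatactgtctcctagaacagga
Slc9a3, chr13:74121163-74121462, plus strand: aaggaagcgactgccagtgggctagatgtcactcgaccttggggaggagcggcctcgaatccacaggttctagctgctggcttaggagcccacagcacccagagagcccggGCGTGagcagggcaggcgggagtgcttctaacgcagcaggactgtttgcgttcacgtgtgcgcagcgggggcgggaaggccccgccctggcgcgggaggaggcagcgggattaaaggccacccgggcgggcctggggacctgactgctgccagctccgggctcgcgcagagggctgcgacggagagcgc
Cftr, chr6:18170437-18170736, plus strand: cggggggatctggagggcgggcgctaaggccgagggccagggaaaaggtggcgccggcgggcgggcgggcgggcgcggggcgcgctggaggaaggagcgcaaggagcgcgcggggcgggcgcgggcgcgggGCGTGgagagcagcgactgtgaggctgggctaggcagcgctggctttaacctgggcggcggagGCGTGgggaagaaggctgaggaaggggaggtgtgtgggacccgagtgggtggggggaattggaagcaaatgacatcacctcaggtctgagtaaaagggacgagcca

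The Slc26a3 window was AT-rich (39.3% G or C, against a median of 52.7% over all promoters), and held TATAAA at -30 and CAAAG at -136 from the start site. The Slc9a3 window was GC-rich (68.7%) and held GCGTG at -139. The Cftr window (71.3% G or C) held GCGTG at -119 and again at -56. Of the other windows, 1 of 2 for Slc4a4 held GCGTG on the minus strand at -119 and CAAAG at -176, that of Kcnn4 held CAAAG on the minus strand at -140, and that of Slc26a6 held none of the motifs. Over all 32851 promoter windows, GCGTG was present in 32.4%, CAAAG in 53.9%, TTTATNG in 10.9% and TATAAA in 13.6%. Each match describes letters only.

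TNBS colon had less mRNA of the surface chloride exchanger, both apical sodium-proton exchangers, the proton-potassium pump, the basolateral bicarbonate loader and the crypt chloride channel. Against sham, 6 of the 10 genes were called lower in TNBS vehicle mice (Slc26a3, Slc9a2, Slc9a3, Atp12a, Slc4a4 and Cftr) and 1 was called higher (Slc26a6), at a Benjamini-Hochberg adjusted p under 0.05 in edgeR's quasi-likelihood test. Of all 17928 genes tested, 13.5% were called lower and 18.2% higher in the same comparison. The median log2 fold change was -0.61 over the 10 genes and 0.02 over all genes tested. Because the 10 genes were chosen with earlier results of these data known, these counts describe them only. For Slc26a3, Slc9a2, Slc4a4 and Atp12a, each of the 10 vehicle mice lay below the lowest sham mouse. The share of all genes tested that separated in this way was not counted, so this describes these genes only. Without vehicle mouse 6, the highest in pancreatic transcripts, 6 genes were called, all but Slc26a6 of the 7. Without the 4 vehicle mice high in such transcripts (2, 5, 6 and 9), a setting chosen after seeing the data, the 7 genes and Kcnn4 were called. Of all calls, 57.5% were higher in vehicle mice with the scaling used, against 41.4% with quantile normalization and 86.7% when libraries were scaled to the pan-epithelial genes.

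**Figure D1:**
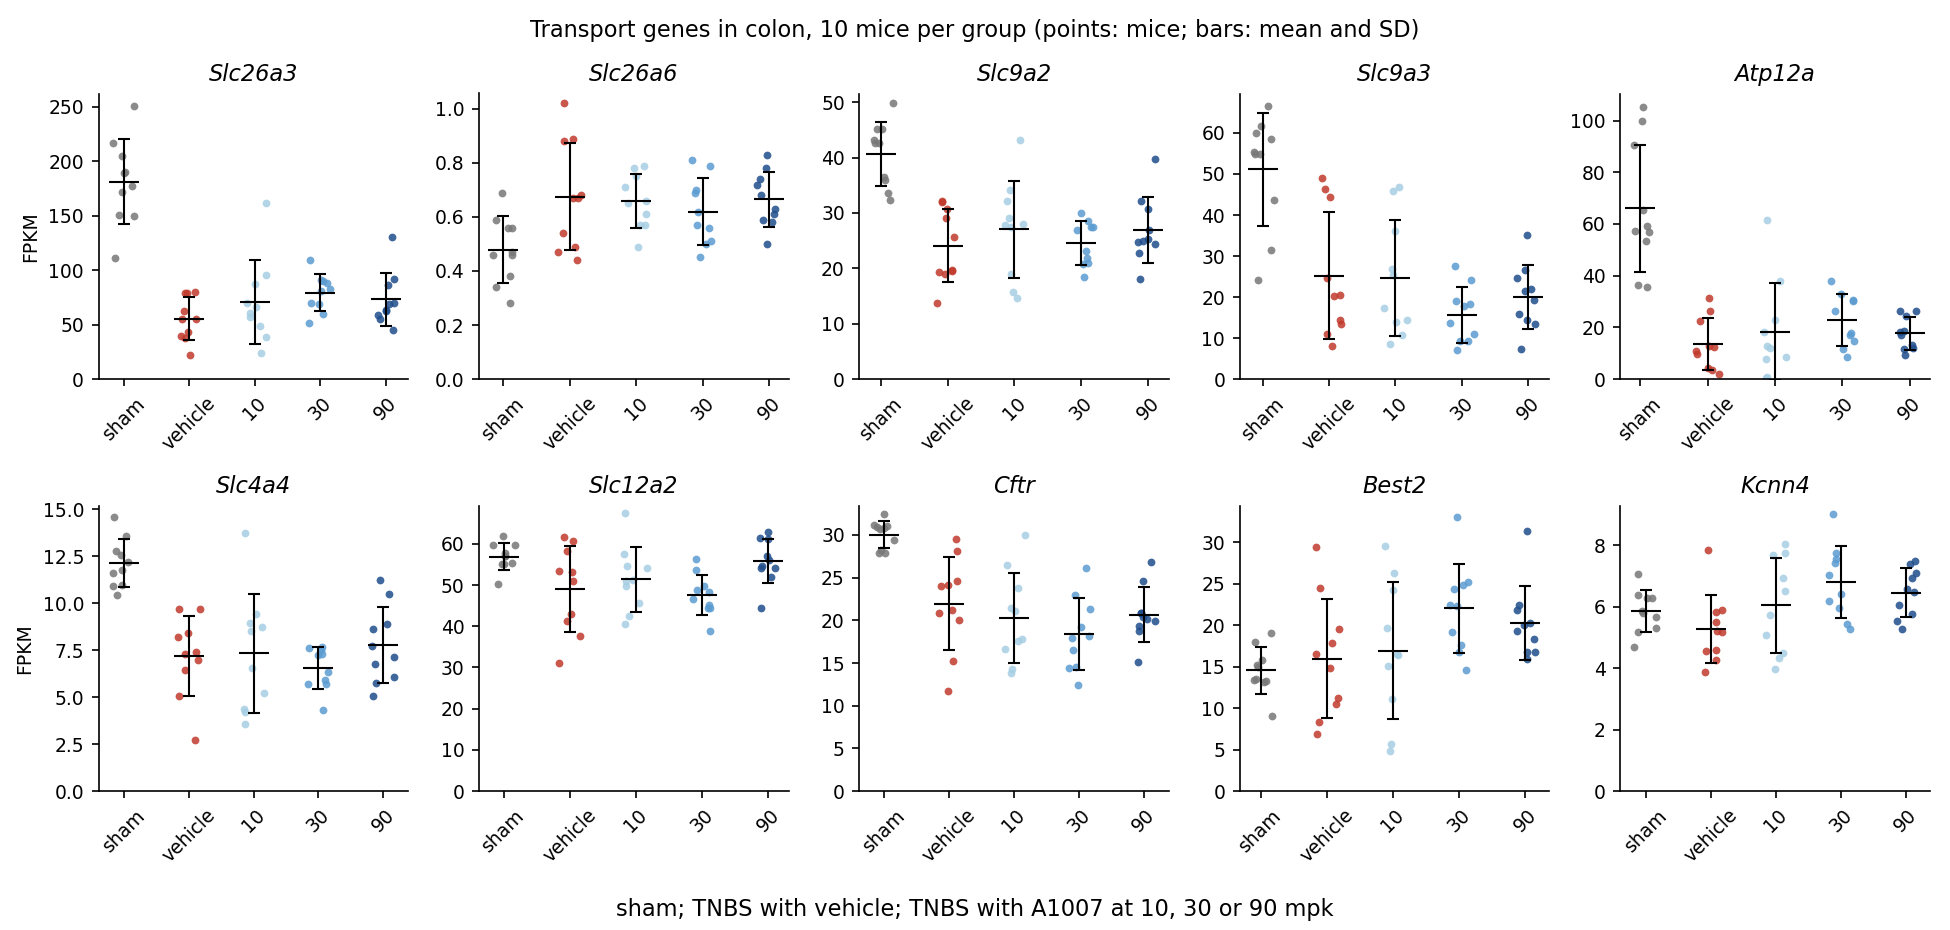
FPKM of the 10 transport genes in each mouse (points), by group on the horizontal axis, with the mean and SD of 10 mice as bars (the SD bar of Atp12a at 10 mpk ends at the axis). Slc26a3 and Atp12a show the widest gap, with every vehicle mouse at or under 79.54 and 31.2 FPKM and every sham mouse at or above 110.84 and 35.74 FPKM.

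Of the apical anion exchangers, Slc26a3 (GRCm39 chr12:31440870-31523916) carries most chloride-bicarbonate exchange of the colon surface and was the most abundant of the 10 genes in sham colon. Sham mice ranged from 110.84 to 250.95 FPKM (fragments scaled to exon length and library size) with a median of 183.8, and vehicle mice from 22.26 to 79.54 with a median of 54.86. The groups did not overlap, and the vehicle mean of 55.27 ± 19.8 FPKM (SD, n = 10) was 30.5% of the sham mean of 181.3 ± 39.2. The log2 fold change was -1.71 (SE 0.20, adjusted p = 2.83e-06), and the gene was called lower under all 31 alternative settings tried.

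Slc26a6 (chr9:108730482-108742117), an exchanger of chloride for bicarbonate or oxalate best known from the small intestine, was the least abundant of the 10. Sham mice ranged from 0.28 to 0.69 FPKM (median 0.465) and vehicle mice from 0.44 to 1.02 (median 0.67), counts of 28 to 99 per library. The groups overlapped, with 3 vehicle mice above the highest sham mouse. The gene was called higher (log2 fold change 0.51, SE 0.18, adjusted p = 0.0340), but in only 19 of 31 alternatives, over which the adjusted p ran from 0.00537 to 0.0939. The call was lost without any of sham mice 2, 4, 5, 6, 7 and 9 or vehicle mice 1, 3 and 6, with log2 fold changes between 0.42 and 0.50. On the opposite strand an unnamed annotated gene overlaps Slc26a6 and averaged 1.14 counts, against 58.9 for Slc26a6, and whether the counting used strand is not given in the sources used here.

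Both apical sodium-proton exchangers were lower. Slc9a2 (NHE2, chr1:40719734-40808433) ranged from 32.26 to 49.79 FPKM in sham mice (median 42.66) and from 13.82 to 32.16 FPKM in vehicle mice (median 22.61). The groups met without overlapping, and the log2 fold change was -0.75 (SE 0.13, adjusted p = 0.00023). Slc9a3 (NHE3, chr13:74269576-74317561), the exchanger of bulk sodium absorption, ranged from 24.16 to 66.65 FPKM in sham mice (median 55.16) and from 8.03 to 48.94 FPKM in vehicle mice (median 20.38). Vehicle mice 5, 6 and 9 had 44.31, 46.29 and 48.94 FPKM, inside the sham range, and the other 7 had at most 24.7 FPKM. Mice 5 and 9 also had the highest neutrophil sums, 2302 and 4214 CPM against 34.95 to 707.9 CPM in the other vehicle mice, and all 3 were among the 4 vehicle mice high in pancreatic transcripts, mouse 6 having the most. The part of these transcripts in the Slc9a3 levels was not tested. The log2 fold change was -0.97 (SE 0.33, adjusted p = 0.0295), called in 27 of 31 alternatives with adjusted p from 9.1e-05 to 0.0697. It was not called when libraries were scaled to pan-epithelial genes (-0.81, adjusted p = 0.0697), with no filter (-0.99), without sham mouse 6 (-0.93) or without vehicle mouse 2 (-0.94). Without vehicle mice 2, 5, 6 and 9 it was -1.78 and called.

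Atp12a (chr14:56602525-56626007) encodes the catalytic subunit of the non-gastric proton-potassium ATPase, which acidifies the lumen and takes up potassium in the distal colon. It had the largest fold change of the 10 genes. Sham mice ranged from 35.74 to 105.17 FPKM (median 58.36) and vehicle mice from 1.86 to 31.2 FPKM (median 11.71), with no overlap. The vehicle mean of 13.53 ± 10.0 FPKM was 20.5% of the sham mean of 65.97 ± 24.6 FPKM, a log2 fold change of -2.28 (SE 0.42, adjusted p = 0.000449). Summed distal Hox transcripts moved with Atp12a among sham mice, as given further on. Between vehicle and sham, none of the 4 Hox genes was called (median log2 fold change -0.21). Their sums were 94.93 to 269.8 CPM in vehicle and 153.4 to 353.5 CPM in sham mice. The part of the Hox level in the lower Atp12a was not tested.

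The basolateral loaders split. Slc4a4 (chr5:89034345-89387512), the sodium-bicarbonate cotransporter NBCe1 that brings bicarbonate into the cell, ranged from 10.46 to 14.6 FPKM in sham mice (median 12.0) and from 2.73 to 9.69 FPKM in vehicle mice (median 7.345). No vehicle mouse reached the sham range (log2 fold change -0.77, SE 0.13, adjusted p = 0.000204). Slc12a2, the sodium-potassium-chloride cotransporter NKCC1 that loads chloride for secretion, ranged from 50.16 to 61.86 FPKM in sham mice (median 57.1) and from 31.05 to 61.68 FPKM in vehicle mice (median 52.07). The groups overlapped and the difference was not called (log2 fold change -0.22, 95% interval -0.40 to -0.03, adjusted p = 0.0629). It was called lower in 5 of 31 alternatives, among them leaving out vehicle mouse 1 (-0.25), 4 (-0.25) or 7 (-0.25), with adjusted p from 0.0334 to 0.579 over all of them. Its SD was 3.27 FPKM in sham and 10.4 FPKM in vehicle mice.

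Among the exit channels, Cftr (chr6:18170686-18322767), the cyclic AMP-gated chloride and bicarbonate channel of the crypt, was the steadiest gene in sham mice, with a coefficient of variation of 5.27%. It ranged from 27.83 to 32.4 FPKM in sham (median 30.77) and from 11.72 to 29.51 FPKM in vehicle mice (median 22.62). Of the 10 vehicle mice 8 lay below the lowest sham mouse, and the log2 fold change was -0.46 (SE 0.10, adjusted p = 0.00158). With scaling to pan-epithelial genes it was -0.31 and not called (adjusted p = 0.0528, the highest of 31 alternatives, of which the lowest was 0.000118). Best2 (chr8:85733831-85741160), a bestrophin anion channel linked to bicarbonate secretion in colonic goblet cells, ranged from 9.01 to 19.03 FPKM in sham (median 14.25) and from 6.88 to 29.42 FPKM in vehicle mice (median 15.7). Vehicle mice lay on both sides of the sham range, 2 below and 3 above it, and no difference was called (log2 fold change 0.15, 95% interval -0.30 to 0.59, adjusted p = 0.630).

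Kcnn4 (chr7:24069688-24086115), the calcium-activated potassium channel KCa3.1 of colonocytes and also of immune cells, ranged from 4.68 to 7.05 FPKM in sham mice (median 5.83) and from 3.88 to 7.84 FPKM in vehicle mice (median 5.2). The groups overlapped and no difference was called (log2 fold change -0.14, 95% interval -0.36 to 0.08, adjusted p = 0.327). It was called lower in 1 of 31 alternatives, without vehicle mice 2, 5, 6 and 9 (-0.22, adjusted p = 0.046, the lowest of a range up to 0.947).

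In sham colon the order of mean FPKM was Slc26a3, Atp12a, Slc12a2, Slc9a3, Slc9a2, Cftr, Best2, Slc4a4, Kcnn4 and Slc26a6. Slc26a3 lay apart at the top, and the ranges of neighbours overlapped from Atp12a (65.97 ± 24.6 FPKM) down to Cftr (30.04 ± 1.58) and between Best2 (14.54 ± 2.81) and Slc4a4 (12.15 ± 1.28). Kcnn4 (5.848 ± 0.685) and Slc26a6 (0.479 ± 0.124) overlapped no neighbour.

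A1007 was compared with vehicle in the 40 TNBS mice. At 10 mpk none of the 10 genes was called (lowest adjusted p 0.375), where 5.75% of all genes tested were. None was called without mice 3 and 8 either, a setting chosen after seeing the data, where 1325 of all genes were. At 30 mpk 1 of 10 was called, Kcnn4, where 31.4% of all genes were. At 90 mpk none was called (lowest adjusted p 0.146), where 18.2% of all genes were. The median log2 fold change over the 10 genes was 0.08, 0.03 and 0.15 at the 3 doses, and within 0.02 of 0 over all genes. Markers of other cells were compared with vehicle at the same doses, 10, 30 and 90 mpk. Called lower were 4, 5 and 6 of the 6 neutrophil markers and 2, 5 and 6 of the 6 macrophage markers. Of the 6 fibroblast markers 0, 5 and 5 were called lower. Smooth muscle markers and T and mast cell markers went the other way. Of the 6 smooth muscle markers 1, 3 and 2 were called higher and 0 lower, with median log2 fold changes of 0.335, 0.486 and 0.434. The T and mast cell markers had median log2 fold changes of 0.35, 0.10 and 0.27. Of these 6 T and mast cell markers 0 were called lower at any dose, and 1 was called higher at 90 mpk. These comparisons share the vehicle mice.

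Kcnn4 ranged from 5.26 to 9.03 FPKM at 30 mpk (median 6.72) against 3.88 to 7.84 FPKM in vehicle mice (median 5.2). The ranges overlapped, and the log2 fold change was 0.39 (SE 0.13, 95% interval 0.14 to 0.64, adjusted p = 0.0165). It was 0.19 (-0.06 to 0.44) at 10 mpk and 0.26 (0.01 to 0.51, adjusted p = 0.146) at 90 mpk. Pan-epithelial genes were also higher at 30 mpk, 5 of 10 being called (median log2 fold change 0.21, sums of 8216 to 9708 CPM). Scaled to those genes, Kcnn4 had a log2 fold change of 0.20 at 30 mpk and was not called (adjusted p = 0.156, the highest of 34 alternatives, of which the lowest was 0.000381), and the median of all genes was -0.22.

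For the genes that were lower in colitis, the interval of each difference from vehicle shows what the 10 mice a group could resolve. Slc26a3 ranged from 23.61 to 162.15 FPKM at 10 mpk (median 63.72), 51.43 to 109.47 at 30 mpk (median 81.61) and 45.06 to 130.3 at 90 mpk (median 66.32). All 3 medians lay above the vehicle median of 54.86 FPKM and below the lowest sham mouse at 110.84 FPKM. The log2 differences from vehicle were 0.36 (95% interval -0.12 to 0.84), 0.54 (0.06 to 1.02, adjusted p = 0.0749) and 0.38 (-0.10 to 0.86). At 30 mpk the call was made in 2 of 34 alternatives, the rank-sum test and the fit on the 2 groups compared, with adjusted p from 0.035 to 0.34 over all of them.

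Atp12a ranged from 0.39 to 61.52 FPKM at 10 mpk (median 12.47), 8.52 to 37.93 at 30 mpk (median 22.02) and 9.46 to 26.37 at 90 mpk (median 17.54). The 2 lowest values at 10 mpk, 0.98 and 0.39 FPKM, belong to mice 3 and 8, which were low in distal Hox transcripts. Its differences from vehicle had the widest intervals of the 10 genes, -0.60 to 1.47 at 10 mpk, -0.25 to 1.82 at 30 mpk and -0.67 to 1.39 at 90 mpk on the log2 scale. At 10 mpk the estimate was 0.44, and -0.55 with voom sample weights.

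Slc9a3 ranged from 8.63 to 46.91 FPKM at 10 mpk (median 21.3), 7.07 to 27.57 at 30 mpk (median 15.67) and 7.39 to 35.06 at 90 mpk (median 20.41), and its mean at 30 mpk was 30.7% of sham against 49.3% in vehicle mice. The log2 difference from vehicle was -0.08 (95% interval -0.77 to 0.61) at 10 mpk, -0.70 (-1.39 to -0.0019, adjusted p = 0.116) at 30 mpk and -0.40 (-1.09 to 0.29) at 90 mpk. Slc9a3 was called in 1 of 34 alternatives at 30 mpk, with scaling to pan-epithelial genes (-0.91, adjusted p = 0.0407, the lowest of a range up to 0.856). Without vehicle mice 2, 5, 6 and 9 its difference was 0.10 at 30 mpk and was not called.

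The intervals were narrower for Slc9a2, Slc4a4, Slc12a2 and Cftr. For Slc9a2 the log2 difference from vehicle was 0.17 (95% interval -0.16 to 0.50) at 10 mpk, 0.06 (-0.27 to 0.39) at 30 mpk and 0.14 (-0.19 to 0.47) at 90 mpk. For Slc12a2 all 3 intervals lay between -0.19 and 0.34, for Cftr between -0.49 and 0.17, and for Slc4a4 between -0.48 and 0.49. Cftr was called lower at 30 mpk in 3 of 34 alternatives, with voom sample weights (-0.39), with scaling to pan-epithelial genes (-0.43) and without vehicle mice 2, 5, 6 and 9 (-0.40), with adjusted p from 0.00865 to 0.365 over all of them. Slc26a6 lay between -0.38 and 0.23. Best2, at 22.02 ± 5.32 FPKM and 20.3 ± 4.44 FPKM at 30 and 90 mpk against 15.97 ± 7.19 FPKM in vehicle mice, had intervals of -0.01 to 0.99 and -0.19 to 0.82.

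**Figure D2:**
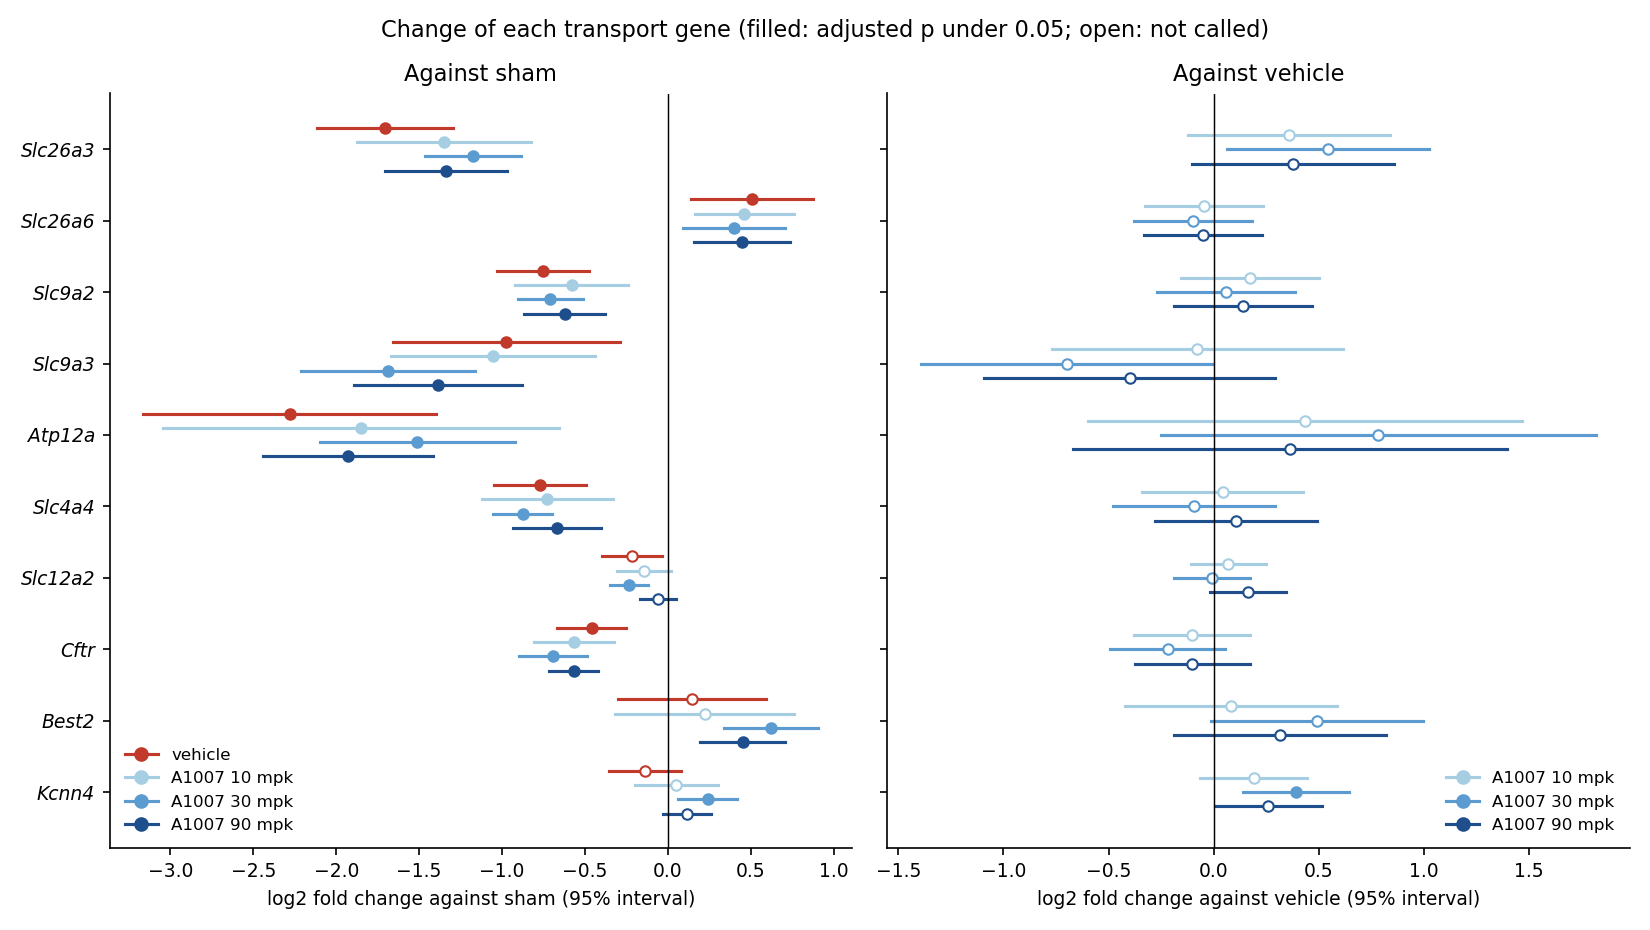
Log2 fold change of each gene against sham (left) and against TNBS vehicle (right), with 95% intervals on the horizontal axis. Filled points were called at an adjusted p under 0.05. On the left 6 genes lie below 0 in all 4 comparisons with filled points, and on the right only Kcnn4 at 30 mpk is filled.

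Doses were also compared with each other, and none of the 10 genes was called in edgeR between 30 and 10 mpk, 90 and 10 mpk or 90 and 30 mpk (lowest adjusted p 0.326, 0.758 and 0.284). Of all genes tested, 2.01%, 0.1% and 0.368% were called in the 3 comparisons.

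Each dose group was set against sham, and these comparisons share the sham mice. At 10 mpk 6 genes were called lower and 1 higher, where 14.7% and 21.3% of all genes were. At 30 mpk 7 were called lower and 3 higher, where 28.7% and 30.3% of all genes were. At 90 mpk 6 were called lower and 2 higher, where 21.9% and 23.4% of all genes were. The members' medians were -0.57, -0.70 and -0.60 on the log2 scale at 10, 30 and 90 mpk, against 0.03, 0.01 and 0.02 over all genes tested. The share of calls that were higher was 59.1%, 51.3% and 51.6% at the 3 doses, and 83.2%, 44.2% and 73.9% with scaling to pan-epithelial genes.

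The 6 genes that were lower in vehicle mice were lower than sham at every dose. Slc26a3 differed from sham by -1.35, -1.17 and -1.34 at 10, 30 and 90 mpk on the log2 scale, and its means were 39.1%, 43.7% and 40.4% of sham. Atp12a differed by -1.85, -1.51 and -1.93, and Slc9a3 by -1.06, -1.69 and -1.39. Slc9a2 differed by -0.58, -0.71 and -0.62, Slc4a4 by -0.73, -0.88 and -0.67, and Cftr by -0.56, -0.69 and -0.57. At 30 mpk no mouse reached the sham range for Slc26a3, Slc9a2, Slc4a4 or Cftr, and 1 mouse did for Atp12a. Here too the share of all genes tested that separated in this way was not counted. Slc12a2 was called lower than sham only at 30 mpk (-0.24, 95% interval -0.35 to -0.12, adjusted p = 0.000805), at 38.95 to 56.21 FPKM with a median of 47.41.

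Slc26a6 was higher than sham by 0.46, 0.40 and 0.45 on the log2 scale at 10, 30 and 90 mpk, close to its vehicle value of 0.51. It was called in 10 of 12, 10 of 11 and 10 of 10 alternatives. Over these the lowest log2 fold changes were 0.248, 0.197 and 0.258, and adjusted p ran from 0.00891 to 0.0562, 0.0166 to 0.0643 and 0.00621 to 0.0393. Kcnn4 was called higher than sham at 30 mpk (0.24, adjusted p = 0.0194), in 7 of 11 alternatives with adjusted p from 0.00475 to 0.0835. Best2 was called higher than sham at 30 mpk (0.62, SE 0.14, adjusted p = 0.000617) and at 90 mpk (0.45, SE 0.12, adjusted p = 0.00548). It ranged from 14.63 to 32.99 FPKM at 30 mpk (median 22.36) and from 15.94 to 31.3 FPKM at 90 mpk (median 19.69), with 7 and 6 of 10 mice above the highest sham mouse at 19.03 FPKM. At 90 mpk the call was lost with all 50 mice in 1 fit (0.45, adjusted p = 0.137, the highest of 10 alternatives, of which the lowest was 0.00062). At 10 mpk Best2 was not called (0.22). Without 10 mpk mice 3 and 8 it was called (0.44, adjusted p = 0.0386, with the highest of 12 alternatives at 0.973), but that setting was chosen after seeing the data and these mice had the lowest Best2 of all 50. Under the same setting Slc12a2 was called lower (-0.23, adjusted p = 0.0107, with the highest at 0.663).

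By Pearson r, Best2 rose with the distal Hox genes from mouse to mouse in every group, and Atp12a did so in some groups only. Best2 correlated with the summed Hoxa13, Hoxb13, Hoxd12 and Hoxd13 CPM in each group of 10 mice, with Pearson r of 0.847 in sham, 0.816 in vehicle, 0.948 at 10 mpk, 0.811 at 30 mpk and 0.733 at 90 mpk (permutation p adjusted over 50 relations 0.0217, 0.0217, 0.003, 0.0362 and 0.0767). Spearman's rho ran from 0.648 to 0.891, with adjusted permutation p from 0.052 to 0.174, so none passed adjustment. Without the 2 mice farthest from the median Hox level, r was 0.655, 0.706, 0.793, 0.402 and 0.609 in the same order. At 10 mpk those 2 were mice 3 and 8, whose Best2 levels of 5.68 and 4.86 FPKM were the lowest of all 50 mice.

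Atp12a gave r of 0.866 in sham (adjusted permutation p = 0.0217, rho 0.77 with adjusted p = 0.0706) and 0.944 at 10 mpk (adjusted permutation p = 0.00725, rho 0.818 with adjusted p = 0.052), and 0.747 and 0.744 without the 2 farthest mice. In vehicle mice r was 0.685 (adjusted permutation p = 0.113, rho 0.842 with adjusted p = 0.052), and at 30 and 90 mpk it was 0.287 and -0.041. Vehicle mouse 10 had 31.2 FPKM of Atp12a and sham mouse 10 had 90.41 FPKM, both at a Hox sum of 269.8 CPM. That is 1 mouse per group, and the part of the Hox level in the group difference was not tested. Cftr gave r of -0.804 at 10 mpk (adjusted permutation p = 0.0217, rho -0.818 with adjusted p = 0.052), and -0.479 without the 2 farthest mice. Slc4a4 gave r of -0.806 at 30 mpk (adjusted permutation p = 0.0444, rho -0.685 with adjusted p = 0.127), and -0.431 without the 2 farthest mice. Slc9a3 had negative r in all 5 groups, from -0.698 at 10 mpk to -0.295 in vehicle mice (adjusted permutation p from 0.0875 to 0.6), so none passed adjustment. Of the 4 Hox genes 2 were called higher at 30 mpk than in sham (sums of 260.5 to 492.1 CPM against 153.4 to 353.5 CPM), 0 at 90 mpk, and their part in the higher Best2 at 30 mpk was not tested. Against vehicle, with sums of 94.93 to 269.8 CPM, 1 of the 4 was called higher at 30 mpk (median log2 fold change 0.57). At 10 and 90 mpk 0 were called against vehicle. The part of the Hox level in the differences of the 10 genes from vehicle was not tested either.

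**Figure D3:**
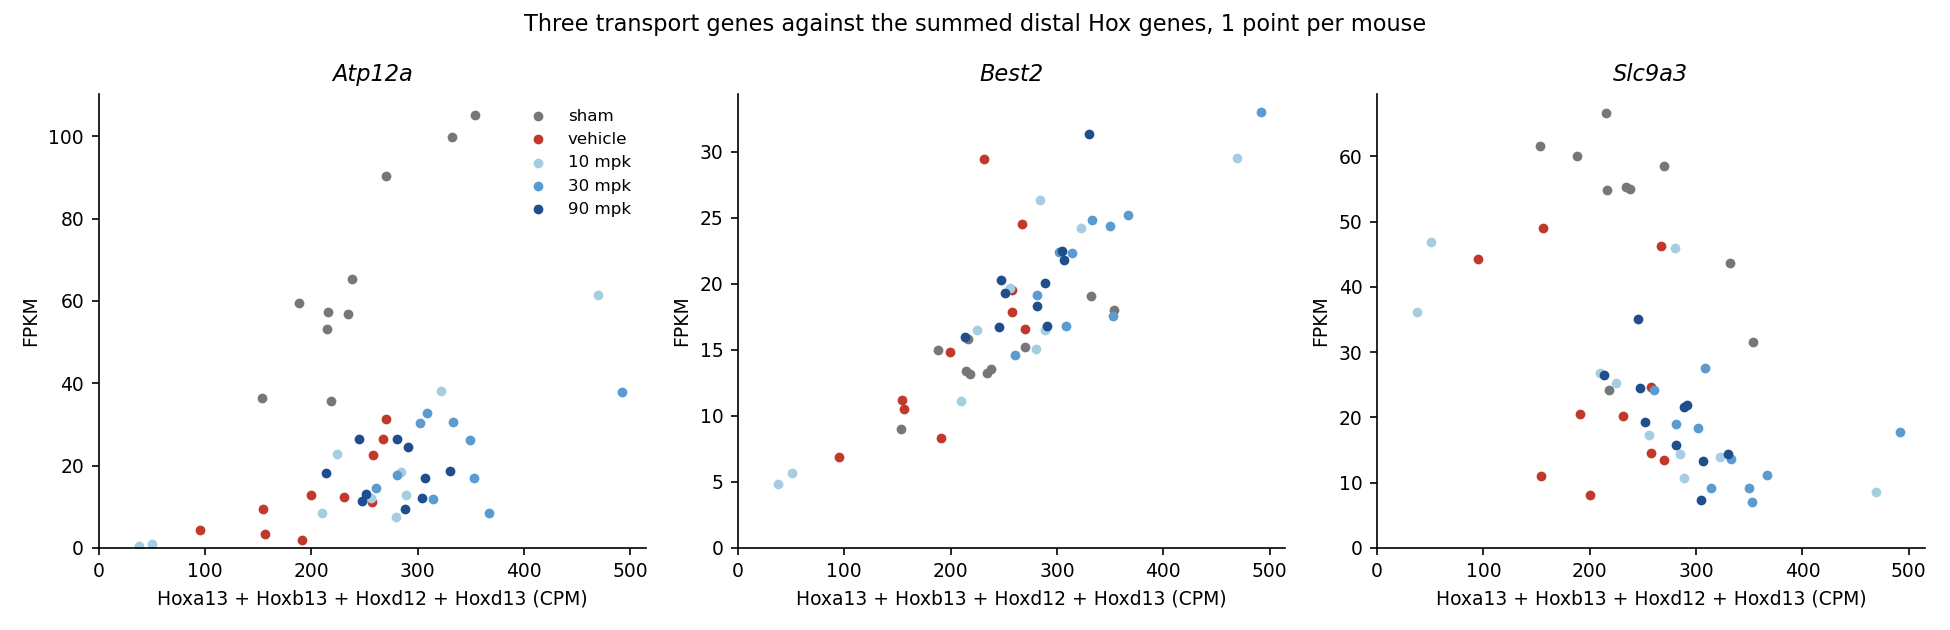
FPKM of Atp12a, Best2 and Slc9a3 (vertical axes) against the summed CPM of 4 distal Hox genes (horizontal axis), 1 point per mouse, coloured by group. Best2 is higher where the Hox sum is higher, every vehicle mouse lies below every sham mouse for Atp12a, and the 2 leftmost points are 10 mpk mice 3 and 8.

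Among the 10 genes themselves, log2 CPM values centred on each group's mean were most alike in pairs over the 50 mice, which share library depth and tissue makeup. Slc26a3 and Slc9a2, which both encode apical exchangers, had a Pearson r of 0.849. The secretory genes Slc12a2 and Cftr had 0.809, Slc4a4 had 0.698 with Cftr and 0.612 with Slc12a2, and Atp12a had 0.783 with Best2. Slc9a3 had 0.184 with Slc9a2 and 0.044 with Slc26a3, and Kcnn4 had -0.524 with Slc26a3 and -0.509 with both Slc9a2 and Slc4a4. Over 13574 or 13575 genes with a mean of at least 1 FPKM, the gene most like Slc26a3 was Acsl3 (0.87), followed by Ndfip2 and the monocarboxylate transporter gene Slc16a1 (0.857). For Slc9a2 it was Chp1, a partner protein of sodium-proton exchangers (0.923), then Mep1a and Fbxo25. Fkbp5 (0.801) and Srxn1 were like Slc9a3. Atp12a was most like Tgm3 (0.865), AI854703 and Hoxd13 (0.855), and Best2 most like Spink1 (0.858), Ggh and Prdm14. Slc12a2 was nearest to Ehf (0.881), Galnt7 and Tm9sf3, Cftr to Ndufs1 (0.888), Galnt4 and Atp8b1, and Slc4a4 to Larp4 (0.854), Arfgef2 and Ubr3. Kcnn4 was nearest to Tsen34 (0.848), Tsfm and Ctbp1, while the low Slc26a6 found no close match (Slc46a3, 0.66, then Ctsf and Ppp1r3c).

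Other genes of ion transport, in 5 lists of 66 genes, are given for vehicle against sham mice, where 13.5% of all genes tested were called lower and 18.2% higher. Of 10 tested other anion exchangers and bicarbonate transporters 2 were called lower and 1 higher (median log2 fold change 0.08). The sulfate transporter Slc26a2 was lower, at 39.46 ± 15.0 against 82.85 ± 9.93 FPKM (-1.08), as was the basolateral anion exchanger AE2, Slc4a2 (-0.44), while Slc4a11 was higher (2.53) from a sham mean of 0.131 FPKM. Of 13 tested sodium-proton exchangers, scaffolds and partners 6 were lower and 3 higher (median -0.21). The lower genes included the NHE3 scaffold NHERF1, Slc9a3r1 (-0.44), the membrane linker ezrin, Ezr (-0.34), and Chp1 (-0.45), and the endosomal exchanger Slc9a9 was higher (0.77).

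Of 10 tested potassium channels and ATPase subunits 5 were lower and 1 higher (median -0.41). Atp1b1, the beta subunit of the sodium pump whose gradient drives the other transporters, was lower, at 387.2 ± 54.4 against 596.2 ± 50.1 FPKM (log2 fold change -0.62). The basolateral potassium channel Kcnq1 (-0.51) and its partner subunit Kcne3 (-0.79) were lower as well. Of 10 tested other chloride channels and cotransporters 3 were lower and 3 higher (median -0.25). Clcn2 (-0.51) and the potassium-chloride cotransporter Slc12a7 (-0.36) were lower, and Slc12a4 (0.64) and Clca4b (3.88) were higher, the last at 58.3 ± 69.3 against 4.124 ± 5.19 FPKM. Of 14 regulators 6 were lower and 2 higher (median -0.28), the lower ones including the prostaglandin E2 receptor Ptger4 (-0.44), the guanylin receptor Gucy2c (-0.45), the VIP receptor Vipr1 (-0.48) and the kinase Wnk4 (-0.63).

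At 30 mpk against vehicle some of these related genes were called. Kcne3 was higher by 0.61 and Kcnq1 by 0.33 on the log2 scale, and at 90 mpk by 0.46 and 0.36, means of 77.48 and 72.24 FPKM for Kcne3 against 51.75 FPKM in vehicle and 89.92 FPKM in sham mice. Clca4b was lower than in vehicle mice by -3.01 at 30 mpk and -4.07 at 90 mpk, and Slc4a11 by -1.12 and -1.28. At 10 mpk Clca4b was called lower too (-2.31, edgeR adjusted p = 0.0494). Ptger4 was higher at both doses (0.25 and 0.21), Vipr1 at 30 mpk (0.27) and Wnk4 at 90 mpk (0.39). For Slc26a2, Slc4a2, Slc9a3r1, Ezr, Chp1, Clcn2, Slc12a7, Atp1b1 and Gucy2c no difference from vehicle was called at any dose. Of the 10 tested genes of the potassium list 2 were called higher and 0 lower at 30 mpk, and of the sodium-proton list 2 higher and 4 lower, where 31.4% of all genes were called.

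**Figure D4:**
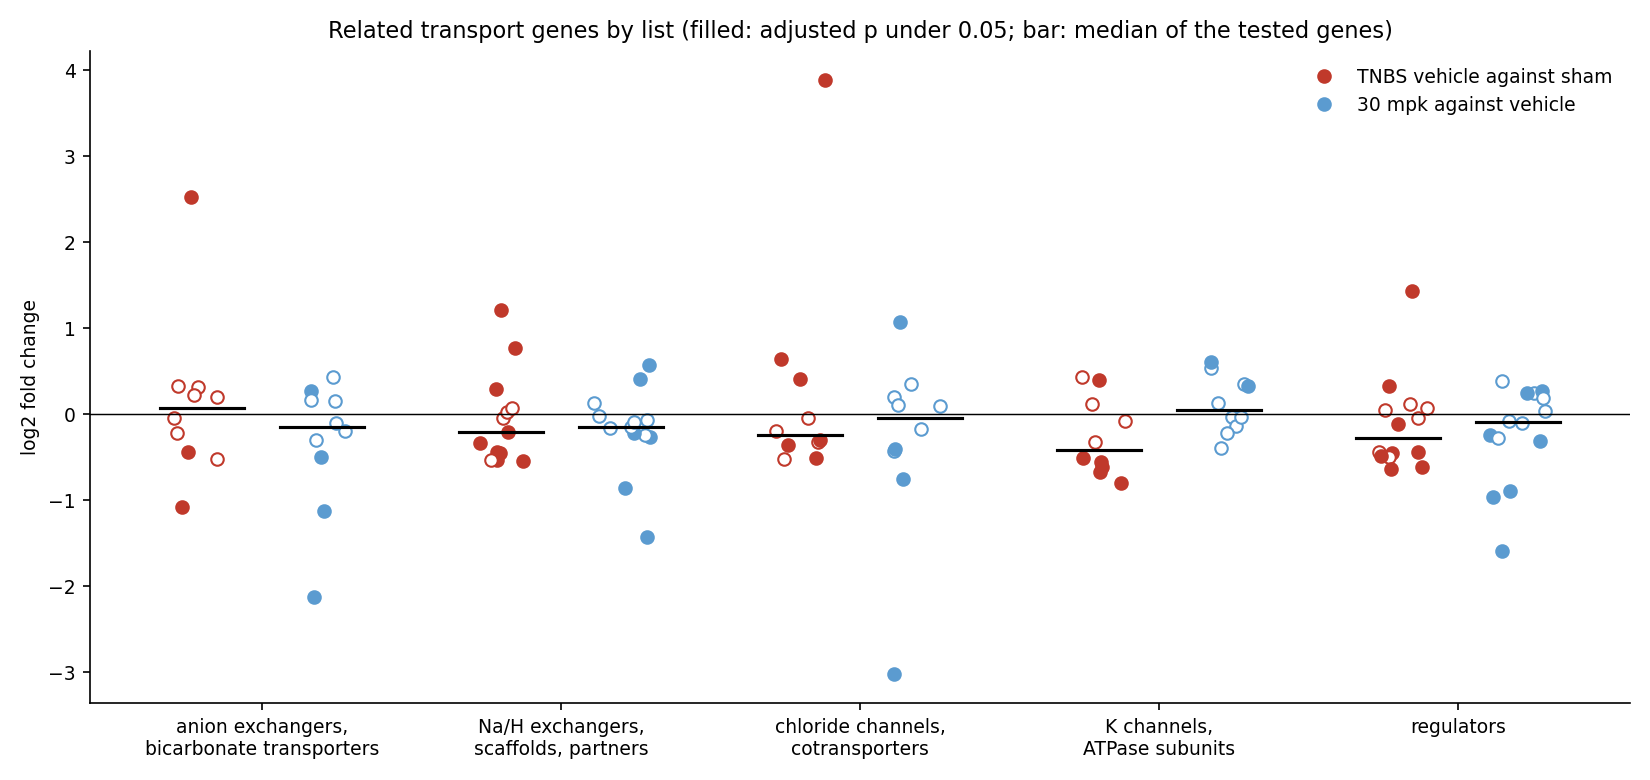
Log2 fold change (vertical axis) of the tested genes of 5 related lists (horizontal axis), in TNBS vehicle against sham (red) and 30 mpk against vehicle (blue), with filled points called at an adjusted p under 0.05 and bars at the median of each list. The potassium list has its vehicle median at -0.41 and its 30 mpk median at 0.05, and the highest red point is Clca4b at 3.88.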

How the data were processed

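The authors deposited, in 1 table, whole read counts per gene and mouse, FPKM values, an exon length per gene and GRCm39 coordinates. Per the submitters' processing notes, the tools were HTSeq 0.6.1, HISAT2 2.2.1, cutadapt 1.9.1 and DESeq2, on GRCm39. Their roles, the strand setting and the handling of multi-mapped reads: not given in the sources used here. Deposited FPKM values matched counts, exon lengths and library totals within 1% for 99.997% of values with at least 500 counts.

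Counts were tested in R 4.3.3 with edgeR 4.0.16 (quasi-likelihood, robust, TMM, filterByExpr with a count minimum of 10, which kept 17928 genes), with p adjusted by Benjamini-Hochberg over all of them. Comparisons with sham used the 20 mice of the pair, and the others the 40 TNBS mice. Intervals are 95% intervals. Alternatives used DESeq2 1.42.0, limma 3.58.1 with a pseudocount of 0.5, rank-sum tests, other scalings and samples, among them leaving out 2 mice low in Xist. The scripts were tested on simulated data. Nothing says that mice were housed or treated separately, so p-values measure the spread between these mice.

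The members and gene lists were chosen with earlier results of these data known. Named were all 10 members, up to 4 called genes of each related list with the smallest p in vehicle against sham, and the 3 genes most like each member. Of the genes this rule takes, 2 are not reported here.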

Additional observations from a re-analysis of the deposited data

Results flagged for a closer look

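Of the 50 sets of 10 mice (10 genes in 5 groups), 3 held a mouse far from the others by Dixon's ratio of gap to range beyond its 95% critical value, and chance marks about 1 in 20. At 10 mpk, mouse 10 had 162.15 FPKM of Slc26a3 where the next mouse had 95.63 FPKM (ratio 0.48), and it also had the highest distal Hox sum of its group. Over the 10 mice of that group the Pearson r of Slc26a3 with the Hox sum was -0.004. Among vehicle mice, mouse 2 had 7.84 FPKM of Kcnn4 where the next had 5.88 FPKM (ratio 0.495). At 90 mpk, mouse 6 had 31.3 FPKM of Best2 where the next had 22.47 FPKM (ratio 0.575).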

How the results depend on the processing

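Over the alternatives, 2034 single values of the 10 genes kept their side of the threshold, 26 lost the call, 20 gained it, and no called value changed sign. Of 100 differences (10 genes in 10 comparisons), 29 changed sign under some alternative, 0 of them called as reported. At 30 mpk against vehicle 1 of the 10 genes was called, Kcnn4, as higher. Rank-sum tests and the fit on only the 2 groups compared called 2, adding Slc26a3 as higher. Voom sample weights called 2, adding Cftr as lower. Leaving out vehicle mice 2, 5, 6 and 9 (chosen after seeing the data) did the same. Pan-epithelial scaling called 2 other genes, Slc9a3 and Cftr, both lower, and not Kcnn4. With voom weights the number called was 1 at 90 mpk against vehicle, 2 at 30 against 10 mpk and 1 at 90 against 30 mpk, each 0 otherwise. Leaving out 1 mouse at a time gave 5 to 8 called genes in vehicle against sham, 0 to 0 at 10 mpk, 1 to 1 at 30 mpk and 0 to 0 at 90 mpk against vehicle. With the replicate block the counts were 7 in vehicle against sham, 0, 1 and 0 against vehicle, 7, 10 and 8 against sham and 0 between doses, as without it. The numbers were not taken as pairs: of 10 same-numbered pairs a comparison, 0 to 6 correlated over 0.1.

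Of all genes, 1030 were called at 10 mpk against vehicle, 0 with rank-sum tests (2431 at an unadjusted p under 0.05), 1463 with DESeq2, 4 with only those 2 groups, 1749 with all 50 mice 514 without vehicle mice 2, 5, 6 and 9, and 494 to 2436 leaving out 1 mouse. At 90 mpk against vehicle it was 3266, and 1201 without those 4 mice. At 90 mpk against sham it was 8111, and 4399 with all 50 mice. Between doses it was 361 (117 to 4001), 18 (10 to 184) and 66 (38 to 4380). Quantile normalization raised the share of higher calls against vehicle from 49.3%, 43.0% and 39.1% to 65.8%, 56.9% and 56.7% at 10, 30 and 90 mpk, and lowered it to 43.7% at 10 mpk against sham. Pan-epithelial scaling gave 20.3%, 10.0% and 23.2% against vehicle.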

Other observations

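The related genes Slc9a3r2, Sgk1 and Adora2b, chosen after their values were seen, were called against vehicle at all 3 doses in the edgeR fit. Clca4b, given above, was also called at all 3 doses. With rank-sum tests 0 of all genes were called at 10 mpk, so the calls of these genes were lost there. With only the 2 groups compared 4 of all genes were called at 10 mpk, with limma on log2 FPKM 599 and with DESeq2 1463. Whether these genes were among them is not given here. Slc9a3r2, which encodes the NHE3 scaffold NHERF2, averaged 11.64 FPKM in sham, 11.78 in vehicle, 17.17 at 10 mpk, 15.45 at 30 mpk and 17.09 at 90 mpk. Against vehicle its log2 fold changes were 0.53, 0.41 and 0.50 (edgeR adjusted p = 0.00686, 0.00617 and 0.00189), and against sham 0.56, 0.43 and 0.53. Sgk1, a kinase induced by corticosteroids that acts on sodium transport, averaged 62.33 FPKM in sham and 42.77 in vehicle, a difference that was not called, and 23.95, 23.37 and 22.81 FPKM at the 3 doses (log2 fold changes against vehicle -0.89, -0.89 and -0.98, edgeR adjusted p = 0.0377, 0.00912 and 0.0072). Adora2b, an adenosine receptor that triggers chloride secretion, was higher in vehicle than in sham mice (1.44). Its log2 fold changes against vehicle were -1.08, -1.59 and -1.42 at the 3 doses (edgeR adjusted p = 0.039, 0.000452 and 0.00207).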
